A study of Mus musculus with 8 samples.

Results

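The 10 genes Gpam, Agpat2, Lpin1, Lpin2, Dgat1, Dgat2, Pnpla2, Lipe, Mgll and G0s2, which encode enzymes that build and break down triglyceride and 1 protein that restrains the breakdown, were followed across 8 mouse hearts. They were taken by symbol from the 22180 genes of the array table, and all 10 were measured, by 12 probe sets (groups of short probes read as 1 value). All hearts came from Pcyt2+/- mice, which carry 1 disrupted copy of the gene for the rate-limiting enzyme of phosphatidylethanolamine synthesis from ethanolamine, at an age of 8 months, with 4 males and 4 females labelled as biological replicates of myocardium. Males and females share this genotype, and the labels differ by sex alone. Collection fell 3 to 4 hours after the lights went on, and the strain is not given in the sources used here. Wild-type hearts were not analysed here.

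Triglyceride is made in steps: an acyltransferase adds a first fatty acid to glycerol phosphate, a second acyltransferase makes phosphatidic acid, lipins remove the phosphate to give diacylglycerol, and diacylglycerol acyltransferases add the last fatty acid. Diacylglycerol is also the substrate that the ethanolamine branch, which Pcyt2 controls, turns into phosphatidylethanolamine. Lipolysis runs the other way, from triglyceride to diacylglycerol, monoacylglycerol and glycerol, and in heart muscle it supplies fatty acids for oxidation and ligands for the nuclear receptor PPAR alpha.

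Each value is on a log2 scale relative to the median of that probe set over the 8 arrays, so 0 is the middle heart and no absolute level is known. Levels of different genes cannot be ranked, and the presence of heart muscle markers cannot be checked as a level. The mean of 8 cardiomyocyte markers lay between -0.057 and 0.032 on all arrays. The sex labels matched Xist and 3 Y-linked genes on every array. Some hearts stood apart in other tissues: the atrial marker mean was -0.74 in male 1, -1.02 in male 3 and -1.23 in female 1, against -0.18 to 0.52 in the others. The fast skeletal muscle mean was 0.52 in male 1, 0.78 in male 2 and 0.28 in female 1, against -0.19 to 0.10 in the others. The liver marker mean was 0.30 in female 1 and 0.63 in female 2, against -0.075 to 0.075 in the others. Adipocyte markers ran from -0.24 in male 1 to 0.48 in female 4. In such bulk samples, fewer cells of a type and less RNA per cell cannot be told apart.

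Upstream DNA is shown for 5 genes, chosen for their correlations across the hearts, which are given with their tests further on. Of these, Gpam with Mgll was the one pair among the genes to pass by r, and the pairs of G0s2 with either and of Agpat2 with Lpin1 did not pass. The sequences are from RefSeq (GRCm38.p6), in a table matched for 8 of the 10 genes, all but Dgat1 and Dgat2, and each is the 250 bases before an annotated transcription start, 5′ to 3′. The windows are chr19:55127239-55127488 and chr19:55099478-55099727 on the minus strand for both starts of Gpam, and chr6:88724162-88724411 on the plus strand for the first start of Mgll. For G0s2 the window is chr1:193273189-193273438, for Agpat2 chr2:26604418-26604667 and for Lpin1 chr12:16610967-16611216, all on the minus strand. Capitals mark matches on either strand to the nuclear receptor half-site AGGTCA, a direct repeat of that half-site spaced by 1 base, the E-box CACGTG, the cyclic AMP element TGACGTCA, the GC box GGGCGG and the CCAAT box CCAAT.
Gpam, first start: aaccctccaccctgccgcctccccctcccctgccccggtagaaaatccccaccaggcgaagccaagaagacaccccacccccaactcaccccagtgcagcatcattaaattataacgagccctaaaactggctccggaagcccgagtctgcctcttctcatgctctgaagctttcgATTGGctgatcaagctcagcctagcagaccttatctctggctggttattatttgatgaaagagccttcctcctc
Gpam, second start: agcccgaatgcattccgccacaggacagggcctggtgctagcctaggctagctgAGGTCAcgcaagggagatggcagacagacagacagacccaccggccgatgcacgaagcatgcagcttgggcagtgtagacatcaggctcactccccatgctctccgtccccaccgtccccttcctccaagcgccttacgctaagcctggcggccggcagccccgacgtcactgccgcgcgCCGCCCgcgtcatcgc
Mgll, first start: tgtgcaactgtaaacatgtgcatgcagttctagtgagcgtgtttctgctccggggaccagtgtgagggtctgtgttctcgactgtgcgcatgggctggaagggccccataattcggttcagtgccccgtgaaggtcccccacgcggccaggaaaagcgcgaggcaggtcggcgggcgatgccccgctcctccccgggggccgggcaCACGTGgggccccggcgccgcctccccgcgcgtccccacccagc
G0s2: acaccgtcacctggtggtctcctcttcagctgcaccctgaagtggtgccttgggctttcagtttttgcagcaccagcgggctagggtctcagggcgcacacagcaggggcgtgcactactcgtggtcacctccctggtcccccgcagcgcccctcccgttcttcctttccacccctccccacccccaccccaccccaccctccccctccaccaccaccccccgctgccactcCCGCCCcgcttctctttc
Agpat2: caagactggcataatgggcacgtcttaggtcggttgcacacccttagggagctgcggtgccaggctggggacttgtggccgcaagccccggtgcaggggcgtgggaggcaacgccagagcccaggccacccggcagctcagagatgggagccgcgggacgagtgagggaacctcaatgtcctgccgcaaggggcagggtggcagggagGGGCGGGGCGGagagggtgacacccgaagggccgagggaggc
Lpin1: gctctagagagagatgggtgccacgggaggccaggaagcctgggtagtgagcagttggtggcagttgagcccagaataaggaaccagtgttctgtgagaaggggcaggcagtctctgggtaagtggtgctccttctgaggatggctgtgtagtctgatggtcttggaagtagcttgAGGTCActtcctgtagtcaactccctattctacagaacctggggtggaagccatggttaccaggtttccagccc

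The half-site was present in the second Gpam window and in the Lpin1 window, that is in 2 of 13 windows of the 8 genes, against 14.0% of 32851 windows in the table. The E-box was present in 3 of 13 (Mgll, Lipe and Lpin2), against 6.02% of all windows, and the GC box in 8 of 13, against 32.7%. The CCAAT box was present in 2 of 13, in 1 window each of Gpam and Lpin2, against 33.8%. Neither the repeat (0.0335% of all windows) nor the cyclic AMP element (1.55%) was present in a window of the 8 genes. Within these windows Gpam and Mgll shared no motif other than the GC box, which the second windows of both held.

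No gene of the set differed detectably between females and males. At an adjusted p under 0.05 (limma, Benjamini-Hochberg over 22180 genes), 0 of the 10 passed, where 7 of all genes, or 0.0316%, did. At an unadjusted p under 0.05 it was again 0 of 10, against 6.96% of all genes, and the values of the sexes overlapped for all 10, while for 3.74% of all genes they did not. Means were higher in males for 8 of the 10, against 50.4% of all genes, with a median difference of -0.033 (females minus males, log2) beside -5.8e-04 over all genes. The median size of the difference was 0.059 in the set and 0.038 over all genes.

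**Figure D1:**
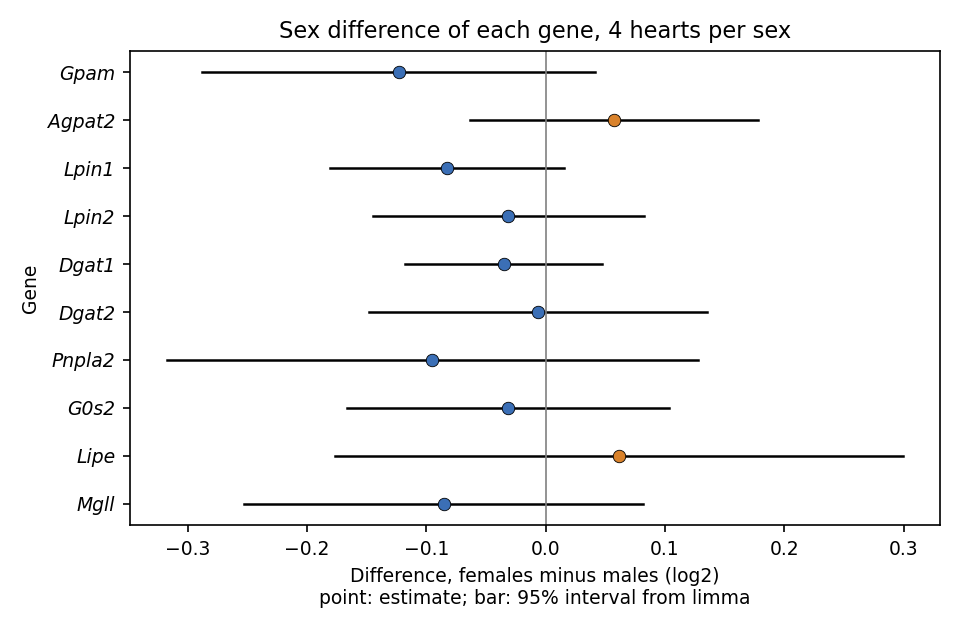
Difference between females and males (log2, females minus males) for each of the 10 genes, with points for the estimate and bars for the 95% interval from limma over 4 hearts per sex. Every interval includes 0, and the widest reach to -0.32 for Pnpla2 and to 0.30 for Lipe.

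The 95% intervals, each for 1 gene alone, show roughly how large a difference in these array values could have gone unseen. They set no firm limit on the difference in RNA itself. The farthest bound was that of Pnpla2 at 1.25-fold, followed by Lipe at 1.23-fold and Gpam at 1.22-fold. For Dgat1 the farther bound was 1.09-fold and for Dgat2 it was 1.11-fold.

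Among the genes of synthesis, Gpam encodes the mitochondrial glycerol phosphate acyltransferase of the first step. Its log2 values were 0.13, -0.14, 0.22 and 0.080 in males 1 to 4 and -0.13, 0.018, -0.066 and -0.018 in females 1 to 4. Male 3 was highest, male 2 and female 1 were lowest, and the sexes overlapped through male 2 alone. The difference of -0.12 ± 0.073 (SE) was the largest of the set in size but did not pass (limma adjusted p = 0.792; exact two-sided permutation test, p = 0.229). Without the 3 hearts lowest in the atrial gene Bmp10 it was 0.0078, and without male 2 it was -0.19.

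Agpat2 encodes the acyltransferase that makes phosphatidic acid and is abundant in adipose tissue. Its log2 values were -0.019, -0.044, 0.11 and -0.019 in males and -0.0086, 0.059, 0.0086 and 0.19 in females. Female 4 and male 3 stood highest and the other 6 hearts lay at 0.059 or below. The difference of 0.057 ± 0.053 (SE) was within the spread of either sex (limma adjusted p = 0.904). It was 0.014 without female 4 and 0.091 without male 3.

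Lpin1 and Lpin2 encode phosphatidate phosphatases, of which lipin 1 is the main form in heart and skeletal muscle. Lpin1 had log2 values of 0.0078, 0.016, -0.0067 and 0.067 in males and -0.033, -0.044, 0.0067 and -0.18 in females. Female 4 was far the lowest, and the sexes overlapped only in that female 3 lay above male 3. Lpin1 had the smallest p of the set, with a difference of -0.082 ± 0.043 (SE; limma unadjusted p = 0.0894, adjusted p = 0.752). By exact permutation (two-sided) p was 0.0571, where 4 against 4 can go no lower than 0.0286. Without female 4 the difference was -0.045. Lpin2 ranged from -0.12 in female 2 to 0.091 in male 4, with a difference of -0.031 ± 0.050 (SE). Its probe sets disagreed in sign, with -0.078 ± 0.051 and 0.015 ± 0.095 (SE). Its direction was thus not settled, although its averaged value is counted above among the means higher in males.

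Dgat1 and Dgat2 encode unrelated enzymes that catalyse the same last step of triglyceride synthesis. Dgat1 was the steadiest gene of the set, with log2 values from -0.032 in female 3 to 0.024 in male 2 on 7 arrays and 0.12 in male 3. Its difference was -0.035 ± 0.037 (SE), and without male 3 it was -0.0067. Dgat2 spread wider, with 0.096, -0.0091, 0.037 and -0.16 in males and -0.14, -0.0090, 0.0090 and 0.073 in females. Its lowest values, in male 4 and female 1, came from both sexes, and its difference was -0.0067 ± 0.063 (SE), with the direction turning when male 1, male 3 or female 1 was left out.

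**Figure D2:**
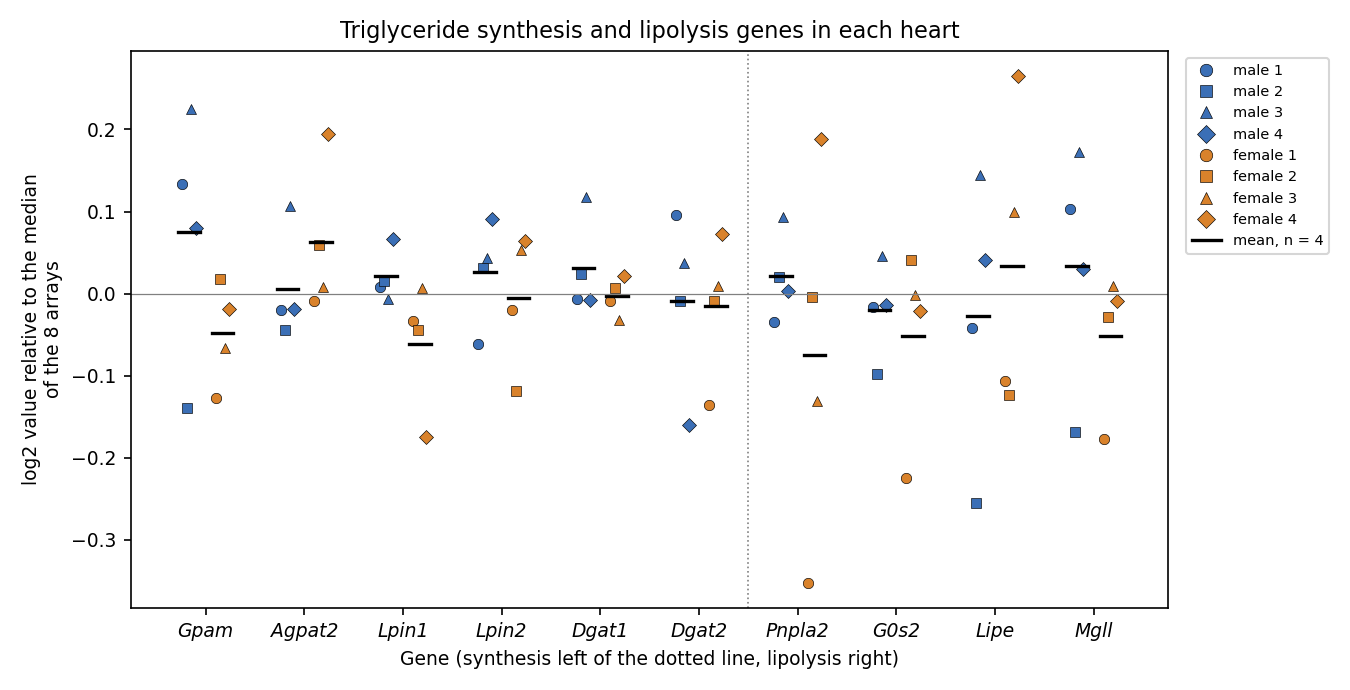
Log2 value of each gene in each heart, relative to the median of the 8 arrays, with males in blue, females in orange, the marker shape giving the replicate number and bars the mean of 4 hearts. Female 1 lies below 0 for all 10 genes, with Pnpla2 at -0.35, and male 3 lies above 0 for 9 of them.

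Among the genes of lipolysis, Pnpla2 encodes adipose triglyceride lipase, which takes the first fatty acid from triglyceride. Its log2 values were -0.034, 0.021, 0.093 and 0.0038 in males and -0.35, -0.0038, -0.13 and 0.19 in females. Females held both its highest and its lowest value, and their SD of 0.23 compared with 0.053 in males. The range over the 8 hearts, 0.54, was the widest of the set. The difference of -0.095 ± 0.098 (SE; limma adjusted p = 0.924) shrank to -0.0027 without female 1.

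G0s2 encodes a small protein that binds and inhibits adipose triglyceride lipase. Its log2 values were -0.016, -0.097, 0.046 and -0.014 in males and -0.22, 0.041, -0.0017 and -0.021 in females. Female 1 was lowest, followed by male 2. One of its probe sets carried most of this, with -0.38 in female 1 and -0.25 in male 2, where the other read -0.069 and 0.059. The difference was -0.031 ± 0.060 (SE), and without female 1 it was 0.026.

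Lipe encodes hormone-sensitive lipase, which acts on diacylglycerol. Its log2 values were -0.041, -0.26, 0.14 and 0.041 in males and -0.11, -0.12, 0.099 and 0.27 in females. High and low hearts occurred in both sexes, and the SD was 0.17 in males and 0.18 in females. The difference of 0.061 ± 0.11 (SE) turned to -0.015 without male 2 and to -0.016 without female 4.

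Mgll encodes monoacylglycerol lipase, the enzyme of the last step. Its log2 values were 0.10, -0.17, 0.17 and 0.030 in males and -0.18, -0.028, 0.0092 and -0.0092 in females. As for Gpam, male 3 and male 1 were highest and male 2 and female 1 lowest. The difference was -0.085 ± 0.074 (SE; limma adjusted p = 0.893), and without the 3 hearts lowest in Bmp10 it was 0.060.

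Values also varied from heart to heart. The median range over the 8 hearts was 0.26 in the set and 0.22 over all genes. In female 1 all 10 genes lay below their median, where 49.7% of all genes did. It held the lowest value of 3, and male 2 that of 3 others. In male 3, 9 of 10 lay above the median, where 47.0% of all genes were below it. It held the highest value of 4, and female 4 that of 3 others. Female 1 and male 3 are among the 3 hearts with low atrial markers, and female 1 also had high liver and fast skeletal muscle markers. In male 1, the other heart with low atrial markers, 4 of the genes lay above the median and 6 below. Female 1 was the lowest array for the means of 3 other cell types, each over 6 genes. Its endothelial mean was -0.15, against -0.027 to 0.044 in the others, its fibroblast mean was -0.19, against -0.059 to 0.15, and its macrophage mean was -0.15, against -0.079 to 0.066. The part of these markers in the genes' values was not tested.

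How the genes varied together was described by Pearson's r and Spearman's rho over the 8 hearts for the 45 pairs, with exact permutation tests and Benjamini-Hochberg adjustment over the 45. Of the pairs, 37 had a positive r and 8 a negative one, with a median of 0.35. Gpam and Mgll, the first step of synthesis and the last of lipolysis, were the closest, with r = 0.94 (exact permutation p = 8.4e-04, adjusted p = 0.0379) and rho = 0.88 (exact permutation p = 0.00724, adjusted p = 0.326). This was 1 of 45 pairs to pass by r, and 0 passed by rho. Without male 2 and male 3, the hearts farthest from the median of Gpam, r was 0.86. Leaving out any 1 heart kept r between 0.90 and 0.99, but only without female 3 did the adjusted p still pass (range 0.0357 to 0.263). Among the 22179 other genes, Mgll ranked number 14 in closeness to Gpam (0.0631% at least as close, Mgll included). From the side of Mgll, Gpam ranked number 8 (0.0361%, Gpam included). Few genes were this close, but a value this high is not particular to these enzymes.

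Other pairs did not pass the adjustment over 45. Agpat2 and Lpin1 had r = -0.83 (exact permutation p = 0.0170, adjusted p = 0.256) and rho = -0.81, and r = -0.62 without male 3 and female 4. Without female 4 alone r was -0.46, and without male 3 alone it was -0.92, so its size rests on female 4. Agpat2 and Lipe had r = 0.76 (rho = 0.69), which fell to 0.19 without male 3 and female 4 and so rests on them. G0s2 and Mgll had r = 0.79 (rho = 0.67) and 0.29 without male 2 and female 1. The probe sets of G0s2 read apart in those hearts, and neither was correlated by itself. The lipase gene Pnpla2 and the inhibitor gene G0s2 had r = 0.71 (exact permutation p = 0.0751) but rho = 0.19, and r = 0.13 without female 1 and female 4. The pair of diacylglycerol acyltransferase genes had r = 0.29 and the genes of lipins 1 and 2 r = 0.072.

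**Figure D3:**
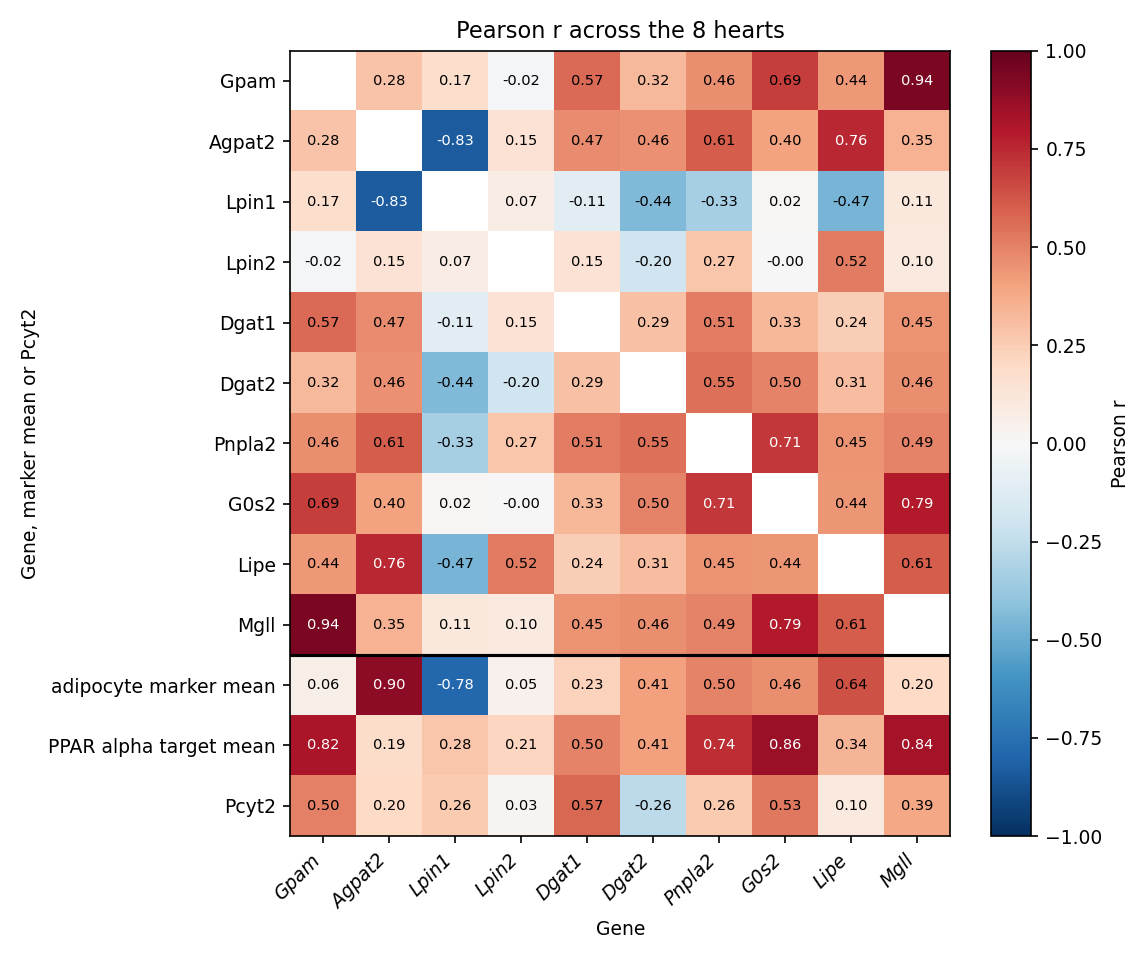
Pearson's r over the 8 hearts for all pairs of the 10 genes, and below the black line for each gene against the mean of 11 adipocyte markers, the mean of 7 PPAR alpha targets and Pcyt2. Gpam and Mgll reach 0.94, Agpat2 and the adipocyte mean 0.90, and Lpin1 and Agpat2 -0.83.

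The adipocyte marker mean, taken over 11 measured genes such as Adipoq, Retn and Car3 with none of the 10 among them, was -0.24, -0.19, 0.14 and -0.17 in males and -0.15, 0.26, 0.14 and 0.48 in females. Agpat2 followed it most closely, with r = 0.90 (exact permutation p = 0.00236, adjusted p = 0.0236 over 10 relations) and rho = 0.90 (adjusted p = 0.0456). Without female 2 and female 4, r was 0.77. The call ended when male 4, female 3 or female 4 was left out (adjusted p of 0.0516, 0.0585 and 0.192). Lpin1 had r = -0.78 (exact permutation p = 0.0137, adjusted p = 0.0685), which rests on those females, since r was -0.25 without them. Lipe had r = 0.64 (exact permutation p = 0.0937) and 0.73 without them, and Gpam 0.056. With the adipocyte mean as a covariate, the sex difference was below 0 for all 10 genes, and 0 of them passed over all genes. That of Agpat2 went from 0.057 to -0.044, that of Lipe from 0.061 to -0.10 and that of Pnpla2 from -0.095 to -0.31 (limma adjusted p of 0.888, 0.899 and 0.395, and for Pnpla2 an unadjusted p of 7.2e-04). Gpam had -0.21, Mgll -0.18 and G0s2 -0.13 in this fit. The covariate itself averaged -0.12 in males and 0.19 in females, so the fit cannot cleanly separate it from sex.

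PPAR alpha switches on genes of fatty acid use in heart. The mean of 7 measured targets (Pdk4, Ucp3, Angptl4, Acot1, Acadm, Plin2 and Plin5) was 0.057, -0.061, 0.17 and 0.076 in males and -0.36, -0.038, -0.059 and -0.060 in females. Female 1 stood far below the rest, with the pyruvate dehydrogenase kinase gene Pdk4 at -0.85, the uncoupling protein gene Ucp3 at -0.49 and the droplet coat gene Plin5 at -0.41. Of the 7 targets, Acadm at 0.0061 and Plin2 at -0.0042 were not low there. This relation was added after the values were seen. Of 10 genes, 3 passed by r: G0s2 with r = 0.86, Mgll with r = 0.84 and Gpam with r = 0.82 (exact permutation p of 0.0136, 0.00665 and 0.00942, each adjusted to 0.0452). By rho, Gpam reached 0.93 (adjusted p = 0.0223), Mgll 0.90 (adjusted p = 0.0228) and G0s2 0.81 (adjusted p = 0.0726). The value of G0s2 is a mean of 2 probe sets, which read -0.069 and -0.38 in female 1, and neither was correlated by itself. Without male 3 and female 1, r was 0.85 for Gpam and 0.65 for Mgll, but 0.16 for G0s2, which rests on those hearts. Leaving out male 1, male 3, male 4 or female 2 left 0 of the 3 past the threshold, and leaving out female 1 left 1. With quantile normalization G0s2 no longer passed (r = 0.81, exact permutation, adjusted p = 0.0573), which left 2. On values less their sex mean G0s2 alone passed (r = 0.99, exact permutation within sex, adjusted p = 0.0174). There Gpam had r = 0.74 and Mgll r = 0.84 (same test, adjusted p of 0.0521 and 0.0637). Over all hearts Pnpla2 had r = 0.74 (exact permutation p = 0.0600, adjusted p = 0.150) and rho = 0.29. Without male 3 and female 1 its r was -0.17, so its relation too rests on them.

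**Figure D4:**
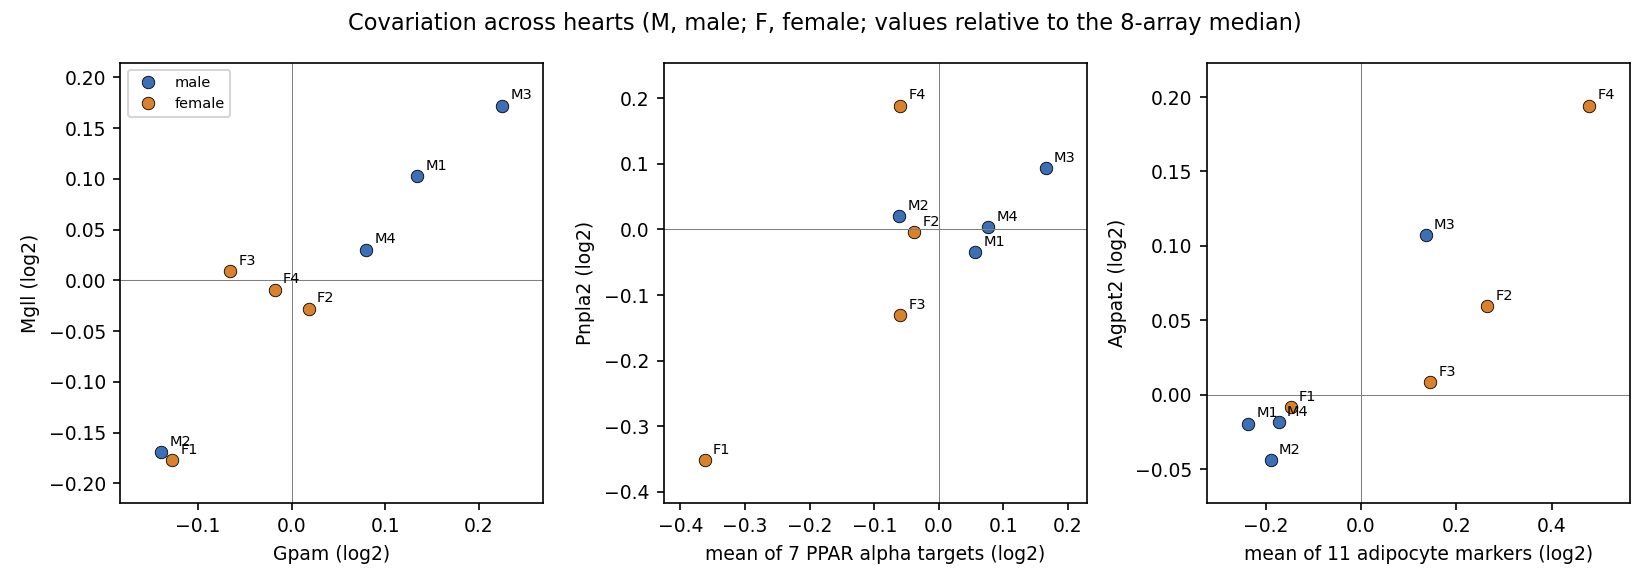
Log2 values of each heart for Mgll against Gpam (left), Pnpla2 against the mean of 7 PPAR alpha targets (middle) and Agpat2 against the mean of 11 adipocyte markers (right), with males in blue and females in orange. On the left male 2 and female 1 lie together at the bottom, in the middle female 1 alone lies at -0.36 and -0.35, and on the right female 4 is farthest out at 0.48 and 0.19.

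Pcyt2, the disrupted gene, had log2 values of -0.13, -0.0071, 0.32 and 0.19 in males and -0.032, 0.24, 0.0071 and -0.057 in females. Its variation among these heterozygous hearts was not closely followed by the 10 genes, with r from -0.26 for Dgat2 to 0.57 for Dgat1 (exact permutation p = 0.117) and 0 of 10 past the threshold by r or rho (0 at an unadjusted p under 0.05 by r, and G0s2 alone by rho, 0.76, p = 0.0368). Without male 3 and female 2, r for Dgat1 was -0.17. In those remaining hearts r was -0.76 for Dgat2 and 0.76 for Lpin2, where Lpin2 had 0.027 over all hearts, so 2 hearts move these values either way. This relation was also added after the values were seen.

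The genes closest in pattern to the 3 members with the widest range were found by Pearson's r over 8 hearts among 17340 named genes. For Pnpla2 these were Pxdc1, Zmym1 and Hip1 (r of 0.96 each). For Lipe they were Ccdc134, Cmklr1 and Tinagl1 (0.96, 0.96 and 0.95), and for Gpam Klra11, Dysf and Gtf2a1l (0.97, 0.96 and 0.96). With 8 hearts, high values arise among many genes, and these are given as a description.

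In the rest of the pathway, too, 0 genes passed between the sexes. Of 11 other measured genes of triglyceride synthesis, 6 had higher means in females, with a median difference of 0.035. Lpin3, the third lipin gene, had the smallest p, with a difference of 0.19 ± 0.080 (SE; limma adjusted p = 0.688), and the acyltransferase genes Agpat3 and Gpat4 had -0.10 ± 0.058 and -0.086 ± 0.055 (SE). Lpin3 thus had the opposite sign to Lpin1, but the difference between them was not tested. Of 9 other genes of lipolysis, 5 had higher means in females, led by the carboxylesterase gene Ces1d at 0.20 ± 0.061 (SE; adjusted p = 0.571), with Ddhd2 at 0.084 and the diacylglycerol lipase gene Daglb at -0.053.

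Of 10 genes of lipid droplet coat and assembly, 4 had higher means in females and the median difference was -0.0038. Plin2 and Plin5, coats of droplets in muscle, had -0.15 and -0.25, and Plin1, the coat of adipocyte droplets, had 0.28 ± 0.12 (SE; limma adjusted p = 0.704). Of 8 genes of triglyceride delivery, 2 had higher means in females (median -0.065), with Angptl4, an inhibitor of lipoprotein lipase, at -0.28, Lmf1 at -0.10 and Gpihbp1 at -0.11. Of 8 genes that use diacylglycerol or feed phospholipid synthesis, 3 had higher means in females (median -0.019). The diacylglycerol kinase gene Dgka, whose enzyme returns diacylglycerol to phosphatidic acid, had the smallest p in any of these lists, with -0.17, -0.034, -0.13 and -0.048 in males and 0.093, 0.11, 0.074 and 0.034 in females. Its sexes did not overlap, but the difference of 0.18 ± 0.040 (SE) did not pass (limma adjusted p = 0.437). Dgke and Selenoi had -0.047 and 0.058.

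Of 13 regulators and genes of adrenergic signalling, 9 had higher means in females (median 0.060), among them the coactivator gene Ppargc1a at 0.19 ± 0.048, the protein kinase A subunit gene Prkar2b at 0.28 ± 0.094 and Irs1 at 0.086 ± 0.031 (SE; limma adjusted p of 0.481, 0.605 and 0.638). All 7 PPAR alpha targets had higher means in males (median -0.18), and 10 of 11 adipocyte markers had higher means in females (median 0.23), where Retn had 0.46, Car3 0.99 and Adipoq 0.22. At an unadjusted p under 0.05, which 6.96% of all genes had, there were 4 of the 13 regulators, 3 of the 7 PPAR alpha targets and 4 of the 11 adipocyte markers, and 0 of these passed the adjustment over all genes. The lists share Plin2, Plin5, Angptl4, Plin1, Cidea, Cidec and Fabp4 with one another.

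**Figure D5:**
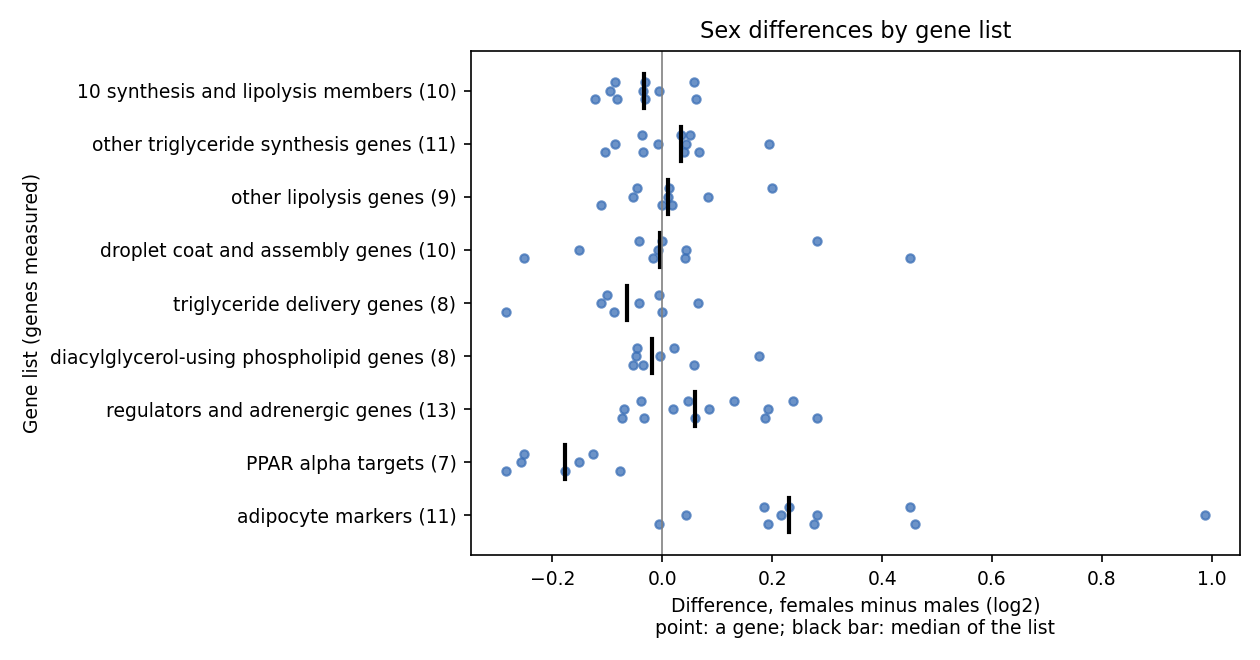
Difference between females and males (log2, females minus males) for each measured gene of the set and of 8 other lists, with a point per gene and a black bar for the list's median. The set has its median at -0.033, between the PPAR alpha targets at -0.18 and the adipocyte markers at 0.23.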

How the data were processed

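RNA from 8 hearts was measured on short-oligonucleotide arrays, from 100 ng of total RNA each per the labels' protocols. The deposited table holds log2 values for 34351 probe sets, each relative to its own median over the arrays (all medians are 0 within 1e-06). The normalization software and log base: not given in the sources used here. Base 2 was assumed. Of the probe sets, 23521 had 1 symbol in the platform annotation, 1814 had several and 9016 none; those with 1 were averaged per gene. Symbols absent from the annotation leave some listed genes unmeasured. The number of arrays limits the precision, and p-values measure only the spread between these hearts.

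Females were compared with males by limma 3.58.1 (lmFit, eBayes) in R 4.3.3 over all 22180 genes, and each member by an exact permutation test. The code was tested on simulated data. Correlations used exact permutations of the arrays. All 10 members are named, the 3 genes of each pathway list with the smallest p, and the 3 genes most like each of the 3 members with the widest range; other names were chosen after their values were seen. The members and lists were chosen with earlier results of these data known. Endothelial, fibroblast and macrophage markers, 6 genes each, had median differences of 0.0040, 0.035 and 0.022; at an unadjusted limma p under 0.05, 2 endothelial genes (Kdr -0.19, Cdh5 -0.11) and 2 fibroblast genes (Dpep1 -0.34, Col1a1 -0.44) were higher in males, and none passed the adjustment. Alternatives covered normalization, probe sets, variance model, weights, block, covariate and arrays left out. A filter on low values was planned but not run, since centred values hold no level.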

Additional observations from a re-analysis of the deposited data

Results flagged for a closer look

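Of 26 sets of 4 hearts (each of the 10 genes, the adipocyte and PPAR alpha target means and Pcyt2, in each sex), 2 held a heart far from the others of its sex by Dixon's test, and chance alone gives about 1 in 20. Agpat2 in male 3 was 0.11, against -0.019 in the next male. The PPAR alpha target mean in female 1 was -0.36, against -0.060 in the next female.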

How the results depend on the processing

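No alternative brought any of the 10 genes past the threshold, over 20 alternatives including each heart left out in turn (limma adjusted p no lower than 0.395). With the replicate block the difference of Gpam was -0.12 and no call on the 10 changed. Same-numbered hearts had deviations correlated at 0.14, 0.097, 0.0062 and 0.091. The same-numbered female was the closest match for male 1 and male 2, but not for male 3 or male 4. The labels name no pairs, and the numbers were not taken as pairs. These values do not settle whether the numbers mark any. The count over all genes went from 7 to 0 among autosomal genes alone (where 1453 had an unadjusted p under 0.05), to 4 without the 3 hearts lowest in Bmp10 (an alternative added after seeing the data) and to between 4 and 7 with 1 heart left out, the 4 being without male 3.

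Directions within the set were not settled. Without the 3 hearts lowest in Bmp10, differences turned to 0.0078 for Gpam, 0.11 for Dgat2, 0.0060 for Pnpla2, 0.062 for G0s2 and 0.060 for Mgll. Without the 2 hearts highest in Alb they turned to 0.033 for Lpin2, 0.050 for Dgat2, 0.0083 for Pnpla2 and 0.0088 for G0s2. Without the 3 highest in Myh4 they turned to 0.086 for Dgat2 and -0.013 for Lipe. The adipocyte covariate turned Agpat2 to -0.044 and Lipe to -0.10, which put all 10 differences below 0. The second Lpin2 probe set by itself gave 0.015. With 1 heart left out, differences ran from -0.057 to 0.033 for Dgat2, -0.062 to 0.026 for G0s2, -0.016 to 0.12 for Lipe and -0.061 to 0.0064 for Lpin2. Lpin1 and Dgat1 kept a higher mean in males in all 18 alternatives. Of these, the variance model, the replicate block and the autosomal genes alone leave a difference unchanged, so they cannot turn it. The sizes ran from -0.11 to -0.029 for Lpin1 (the latter with the adipocyte covariate). For Dgat1 they ran from -0.077 (with that covariate) to -0.0067 (without male 3). The cause of these turns was not tested.

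Calls on correlations changed when hearts were left out. Pairs past the threshold were 0 or 1 with a heart left out and 0 without the 2 hearts highest in Alb. On values less their sex mean the count was also 0 (where p cannot go below 0.00174). For the adipocyte mean the counts in the same order were 0 to 2, 0 and 2. For the PPAR alpha targets they were 0 to 3, 0 and 1. Without those 2 hearts, or on values less their sex mean, no pair can pass alone. The smallest possible p then stays above the threshold after adjustment over all the pairs. The r of Gpam and Mgll was 0.94 in both settings. These 0 counts for pairs therefore cannot show whether that call rests on few hearts. Leave-outs for correlations were added after seeing the data, and fewer hearts by themselves raise the smallest p.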
